A study of Homo sapiens with 8 samples.

Results

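The kinetochore, centromere and spindle checkpoint genes were followed in MDA-MB-231 cells, a triple-negative human breast cancer line, as a set of 43 genes chosen by function. Of these, 40 had an array row that carried their symbol alone, out of 22109 such genes in the table, and CENPA, PMF1 and BUB1B were not analysed here because their rows carried several symbols. Total RNA of 2 high dose, 3 low dose and 3 untreated control samples was measured 24 h after treatment, with 1 Affymetrix Human Gene 2.1 ST array per sample. The titles and the treatment protocol describe crude Wild Yam Root extract (Dioscorea villosa), dissolved in ethanol, at 30 µg/mL (high) and 15 µg/mL (low), both described as sublethal, and the controls as untreated. Their source names and treatment fields name other agents: 3-O-Acetyl-β-boswellic acid (46 µg/mL) in the high samples and Boswellia Serrata Extract (128 µg/mL) in the low samples. What the treated cells received is therefore unsettled, "high" and "low" are names of groups here, and the groups were not read as a dose series. Whether the controls received ethanol, and whether each sample was a culture of its own, is not given in the sources used here, so the p-values cover the spread between these 8 samples and no more, and some of it may be technical.

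The kinetochore is the protein assembly that joins a chromosome to the spindle. At the centromere, nucleosomes that contain CENP-A carry a constitutive network of CENP proteins, which recruits the Mis12 complex, KNL1 and the Ndc80 complex, and the last of these binds microtubules together with the Ska complex. Kinetochores without an attached microtubule start the spindle assembly checkpoint, in which BUB1, BUBR1, MAD1, MAD2 and the kinase MPS1 hold back anaphase. Many of these genes are transcribed mainly in G2 and mitosis, through promoters that hold a CHR element (cell cycle genes homology region), the binding site of the MuvB core of the DREAM, B-MYB and FOXM1 complexes, often below CCAAT boxes bound by NF-Y.

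Promoter windows of RefSeq (GRCh38.p14, 250 bases before to 50 after the annotated start) were at hand for 32 of the 40 genes and for 15336 of all genes tested. The CHR was searched as TTTGAA or TTCGAA, the NF-Y box as CCAAT, and the E2F site as TTTCCCGC, TTTGGCGC, TTTCGCGC or TTTGCCGC, each on both strands. A CHR match lay in 17 of the 32 windows (53.1%), against 17.8% of all genes. Within 50 bases of the start on either side it lay in 14 of the 32 (43.8%), against 5.38% of all genes. CCAAT was found in 20 of 32 (62.5%), against 41.6%, and an E2F word in 3 of 32 (9.38%), against 5.16%. The starts of 6 genes with a CHR match close to them are shown from position -90 to position 30 relative to the start, 5′ to 3′ on the strand of the gene, because these genes fell in the low arrays described further on. Capitals mark CHR and CCAAT matches on either strand (TTCAAA is TTTGAA, and ATTGG is CCAAT, read on the other strand).
NDC80 (chr18:2571467-2571586, plus strand): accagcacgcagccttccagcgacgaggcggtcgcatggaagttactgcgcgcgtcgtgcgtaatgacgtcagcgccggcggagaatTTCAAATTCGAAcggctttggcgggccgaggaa
SPC25 (chr2:168890401-168890520, minus strand): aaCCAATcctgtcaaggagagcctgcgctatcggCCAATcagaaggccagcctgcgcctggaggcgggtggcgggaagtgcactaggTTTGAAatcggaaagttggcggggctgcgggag
SGO1 (chr3:20186177-20186296, minus strand): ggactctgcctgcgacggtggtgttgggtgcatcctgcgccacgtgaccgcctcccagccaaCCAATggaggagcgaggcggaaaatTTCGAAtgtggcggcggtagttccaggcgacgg
BUB1 (chr2:110678034-110678153, minus strand): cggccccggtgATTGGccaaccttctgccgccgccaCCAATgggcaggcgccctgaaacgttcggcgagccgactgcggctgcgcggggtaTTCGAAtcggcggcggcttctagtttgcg
SKA3 (chr13:21176523-21176642, minus strand): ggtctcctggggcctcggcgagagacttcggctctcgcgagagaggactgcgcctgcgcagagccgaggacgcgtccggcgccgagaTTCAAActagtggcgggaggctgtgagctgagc
MAD2L1 (chr4:120066819-120066938, minus strand): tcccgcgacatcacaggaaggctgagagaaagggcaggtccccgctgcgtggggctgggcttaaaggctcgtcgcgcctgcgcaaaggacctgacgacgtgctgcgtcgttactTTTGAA

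In NDC80 CHR matches stood side by side, TTCAAA across the start and TTCGAA, which reads the same on both strands, directly after it. In SPC25, SGO1 and BUB1 the CHR lay within a few bases of the start below CCAAT boxes. The same stretch of CENPT and of MAD1L1, whose RNA was not called different in any comparison, is set beside them. Neither held a match to these words in the whole window, and neither did CENPI, DSN1, NSL1 and CENPE, which were called lower in the low arrays, or ITGB3BP, which was not called.
CENPT (chr16:67847664-67847783, minus strand): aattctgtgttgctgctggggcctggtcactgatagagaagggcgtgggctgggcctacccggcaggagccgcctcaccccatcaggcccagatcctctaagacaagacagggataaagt
MAD1L1 (chr7:2232916-2233035, minus strand): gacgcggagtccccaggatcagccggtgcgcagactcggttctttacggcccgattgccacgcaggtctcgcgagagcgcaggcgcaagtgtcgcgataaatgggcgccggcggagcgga

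**Figure D1:**
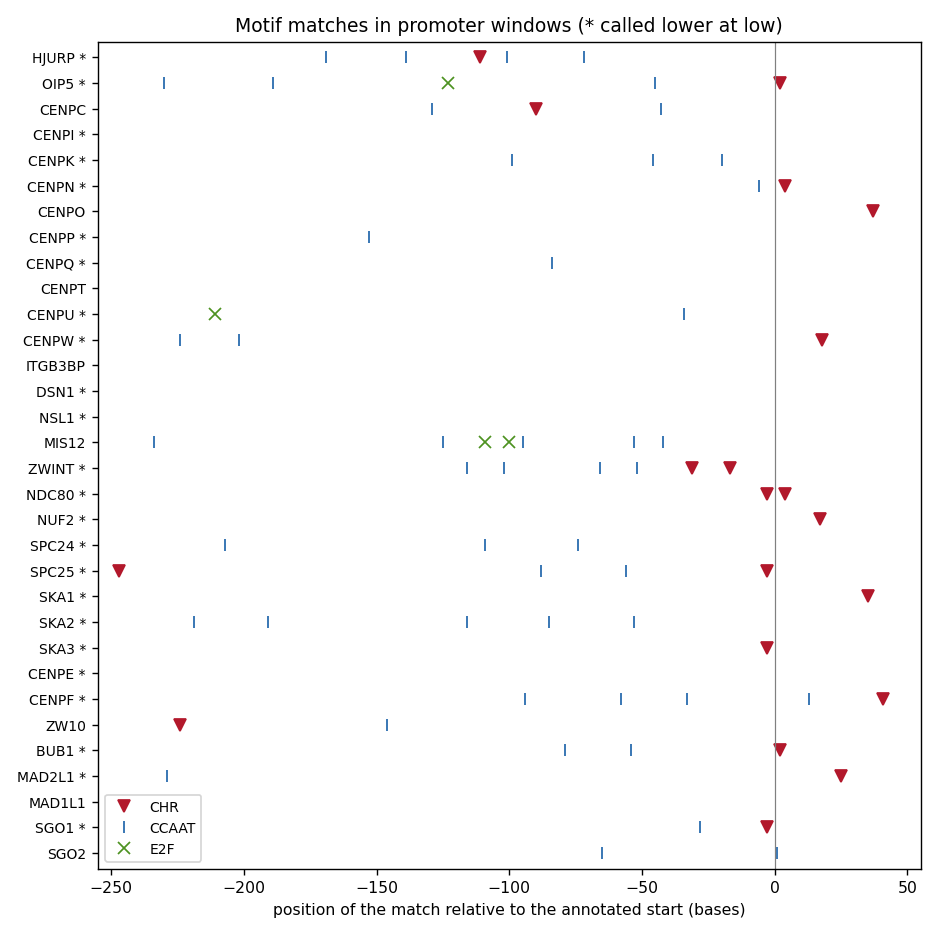
Position of each CHR, CCAAT and E2F match relative to the annotated start (bases; 0 line, start) in the promoter windows of 32 genes, both strands. CHR matches gather near the start, within 50 bases of it in 14 genes, and an asterisk marks genes called lower in the low arrays.

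A match is a match of letters and not a measured binding site. Of the 17 genes with a CHR match 14 were called lower in the low arrays (82.4%), and of the 15 without one 10 were (66.7%). Across all genes with a window these shares were 4.62% of 2730 with a match and 1.62% of 12606 without. CENPC, CENPO and ZW10 held a match and were not called. SPC24, CENPE, CENPI, CENPK, CENPP, CENPQ, CENPU, DSN1, NSL1 and SKA2 were called without one. The window of CENPP (chr9:92600007-92600306) lay inside the gene (chr9:92325468-92620529), so the sequence at the gene's first base was not searched.

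The arrays of a group correlated at 0.972 to 0.994 across genes, but high 2, low 3 and control 3 stood apart, with 75th percentiles of the log2 level of 4.54, 4.54 and 4.73 against 4.80 to 4.94 in the other arrays. These arrays also lay at the edges of their groups in the kinetochore genes. High 2 was below high 1 in 34 of 40 genes (64.2% of all genes), low 3 was the lowest low array in 34 (60.1%), and control 3 was the highest control in 30 (34.5%). Markers of the line were present in every array: the mean log2 level over VIM, CD44, EGFR, CAV1 and AXL was 7.85 to 8.13 in high, 8.21 to 8.47 in low and 7.87 to 8.60 in control arrays. The 6 luminal and epithelial markers averaged 3.47 to 3.48 in high, 3.55 to 3.66 in low and 3.65 to 3.73 in control arrays, and they were mixed. ESR1 and PGR, the hormone receptors that define luminal tumours, stayed at or under 2.18. The epithelial keratin KRT19 stood at 7.20 to 7.95, EPCAM at 4.40 to 5.58, CDH1 at 2.85 to 3.33 and GATA3 at 2.44 to 3.31. Leukocyte markers averaged 1.62 to 1.66, 1.64 to 1.76 and 1.52 to 1.56 in high, low and control arrays (4 of 5 measured), endothelial markers 2.20 to 2.34, 2.29 to 2.39 and 2.16 to 2.65 (3 of 4), and fibroblast markers 1.89 to 2.05, 2.27 to 2.34 and 2.04 to 2.38 (5 of 5), with no single value above 4.12 (COL1A1). The table gives no background level, so a dim gene cannot be told from an absent one. All 40 kinetochore genes lay at or above the median gene in mean level over the 8 arrays. In the low arrays, however, OIP5 (2.40, 2.80 and 2.34) and CENPW (2.79, 2.71 and 2.30) lay below the array medians (2.83, 2.82 and 2.69).

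At the low dose 29 of the 40 genes fell and none rose, by limma's moderated test at an adjusted p under 0.05 over all genes, against 1.81% of all genes lower and 1.19% higher. At an unadjusted p under 0.05, 38 were lower and 0 higher, against 8.77% of all genes lower. After quantile normalization 29 fell and 0 rose, while over all genes the calls moved to 557 lower and 621 higher, against 400 and 264 without it. The median log2 change of the 40 genes was -1.18, against -0.04 over all genes. Of the 29, 23 fell at least 2-fold, against 0.968% of all genes. Every low array lay below every control array in 38 of the 40 genes, against 13.0% of all genes. In bulk RNA, fewer cells in G2 and mitosis and less of these RNAs per cell cannot be told apart. The count was 26 without control 3 (median -0.97) and 28 without control 3, low 3 and high 2 (median -0.90). Without low 2 it was 17 and without low 3 it was 16, where lower calls over all genes also dropped to 170 and 188. With the replicate number as a block it was 31, and 16 when the block was fitted to the low and control arrays alone, with 576 and 310 of all genes lower.

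**Figure D2:**
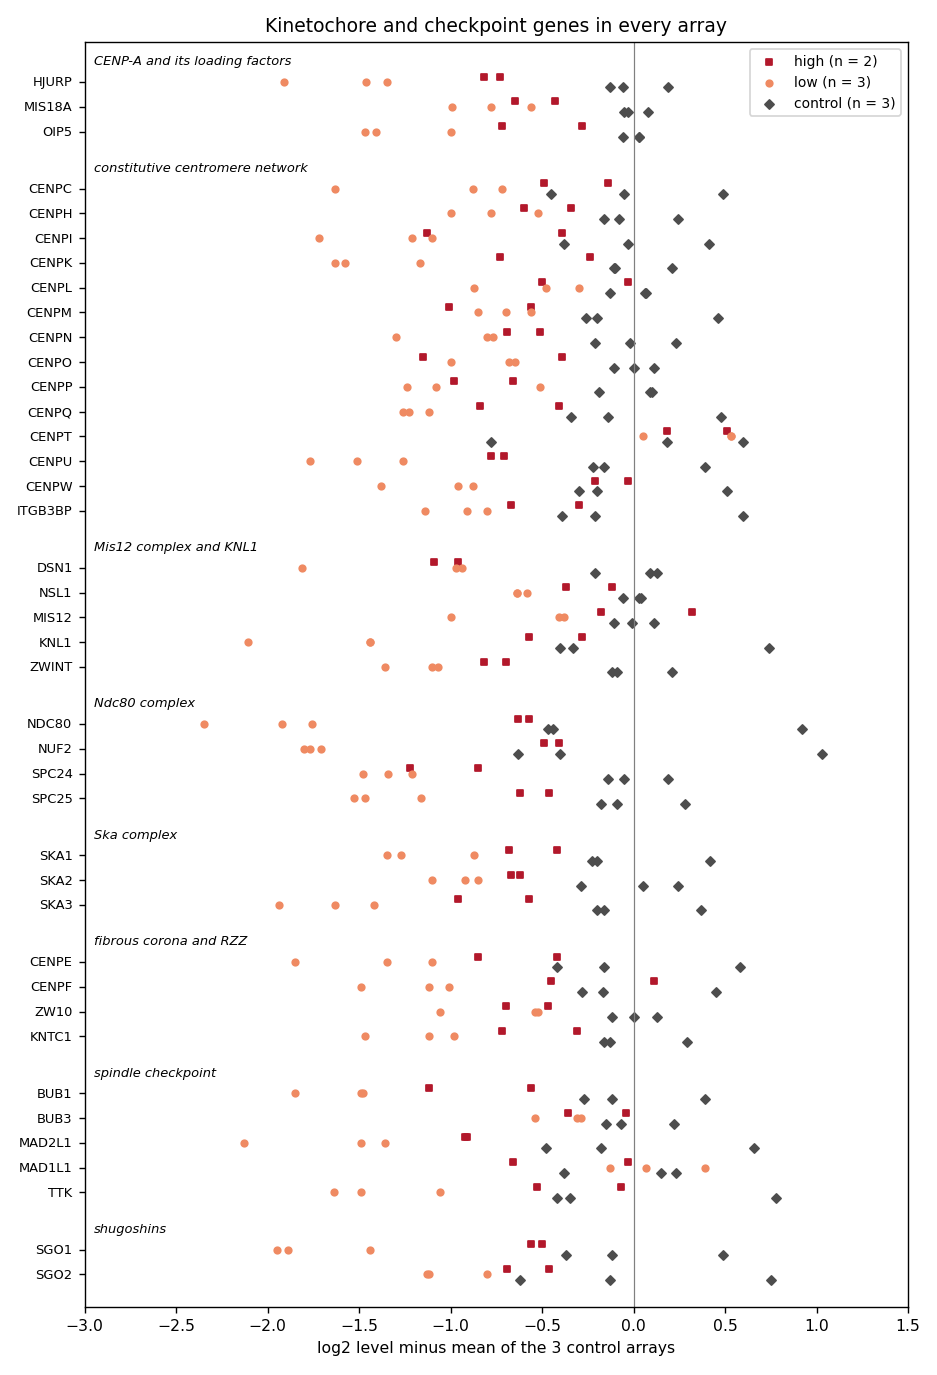
Log2 level of each of the 40 genes in every array minus the mean of the 3 control arrays, ordered by role; squares are high, circles low and diamonds control arrays. The low arrays lie furthest to the left in most genes, below every control array in 38 of 40, and the rightmost diamond is control 3 in 30 genes.

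The Ndc80 complex, the main microtubule coupler, fell in all 4 of its genes at the low dose, against 1.81% of all genes. Its median change was -1.57. NDC80, which encodes its microtubule-binding subunit, stood at 4.36, 4.52 and 3.94 in the low arrays, against 5.84, 5.81 and 7.20 in the controls. The groups did not overlap, and control 3 was more than 1 log2 unit above the other controls. NDC80 changed by -2.01 ± 0.33 (log2 scale, SE; adjusted p = 0.00803), 4.03-fold lower, and by -1.55 without control 3 (adjusted p = 0.00197). NUF2, its partner in the microtubule-binding dimer, stood at 4.20, 4.28 and 4.22 in the low arrays, against 5.59, 5.37 and 7.03 in the controls (-1.76 ± 0.34, adjusted p = 0.0185; -1.24 without control 3). The low arrays agreed within 0.1 log2 units, while control 3 again stood highest. SPC24, of the dimer that binds the inner kinetochore, stood at 5.08, 4.95 and 4.81, against 6.24, 6.48 and 6.15 (-1.34 ± 0.17, adjusted p = 0.00255), and here control 3 was the lowest control. SPC25, its partner, fell by 1.39 on the log2 scale (SE 0.18, adjusted p = 0.0027).

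The Ska complex holds kinetochores on depolymerising microtubules, and all 3 of its genes fell, against 1.81% of all genes. SKA3 stood at 5.78, 5.56 and 5.26 in the low arrays, against 7.03, 6.99 and 7.56 in the controls (-1.66 ± 0.21, adjusted p = 0.00255). SKA1 stood at 4.63, 4.24 and 4.15, against 5.28, 5.31 and 5.93 (-1.16 ± 0.21, adjusted p = 0.0133). SKA2 stood at 4.81, 4.88 and 4.62, against 5.44, 5.97 and 5.77 (-0.96 ± 0.17, adjusted p = 0.0121). None of the 3 genes overlapped between the groups, where every low array lay below every control array in 13.0% of all genes.

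Of 5 genes of the Mis12 complex and KNL1, 4 fell (median -1.17), against 1.81% of all genes. KNL1, the scaffold on which the checkpoint proteins gather, stood at 4.28, 4.28 and 3.61 in the low arrays, against 5.39, 5.32 and 6.46 in the controls (-1.66 ± 0.30, adjusted p = 0.0122; -1.30 without control 3). DSN1, a Mis12 subunit, stood at 5.41, 5.45 and 4.57, against 6.47, 6.18 and 6.51 (-1.24 ± 0.23, adjusted p = 0.0142). Low 3 was the lowest array for both. ZWINT, which binds KNL1, changed by -1.17 ± 0.16 (adjusted p = 0.00366), and the Mis12 subunit NSL1 by -0.62 ± 0.14 (adjusted p = 0.044), the smallest change among the 29. The call of NSL1 ended under 12 of 18 alternative settings. MIS12 itself stood at 6.49, 6.52 and 5.90, against 6.90, 6.79 and 7.01, and was not called (-0.60 ± 0.21, 95% interval -1.05 to -0.14, adjusted p = 0.187), although its groups did not overlap.

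The constitutive centromere network held more genes that were not called: 8 of 14 fell, against 1.81% of all genes, with a median of -0.95. CENPU stood at 4.78, 4.54 and 4.28 in the low arrays, against 5.88, 5.82 and 6.43 in the controls (-1.51 ± 0.20, adjusted p = 0.0033). CENPK stood at 4.77, 4.36 and 4.31, against 5.83, 5.84 and 6.15 (-1.46 ± 0.19, adjusted p = 0.0033). Both were clear of the controls in every array. By subcomplex, CENPI, CENPK and CENPH of the group of CENP-H, CENP-I, CENP-K and CENP-M fell (-1.35, -1.46 and -0.77). The call of CENPH (adjusted p = 0.0475) ended under 12 of 18 alternative settings. CENPM stood at -0.70 ± 0.21 (adjusted p = 0.129). CENPN fell (-0.96), and its partner CENPL stood at -0.55 ± 0.19 (adjusted p = 0.192). Of the group that joins CENP-O, CENP-P, CENP-Q, CENP-U and CENP-R, CENPQ (-1.20) and CENPP (-0.94) fell besides CENPU, and CENPO (-0.78) and ITGB3BP (-0.95), which encodes CENP-R, did not pass (adjusted p = 0.0721 and 0.0668). The call of CENPP (adjusted p = 0.0327) ended under 10 of 18 alternative settings. CENPC, a main link between CENP-A nucleosomes and the Mis12 complex, changed by -1.07 ± 0.28 and did not pass (adjusted p = 0.0694).

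The histone-fold partners CENPT and CENPW, whose proteins form a dimer, had different values. CENPW fell (-1.07 ± 0.23, adjusted p = 0.0278), a call that ended under 7 of 18 alternative settings. CENPT stood at 4.81, 4.80 and 4.33 in the low arrays, against 4.46, 4.88 and 3.49 in the controls (0.37 ± 0.30, adjusted p = 0.681; -0.02 without control 3). Its groups overlapped, and control 3 was far below the other controls. The difference between these genes was not tested.

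The factors that load CENP-A onto centromeres after mitosis fell in all 3 measured genes, against 1.81% of all genes. HJURP, the CENP-A chaperone, stood at 5.74, 5.63 and 5.19 in the low arrays, against 6.96, 7.04 and 7.28 in the controls. It had the smallest adjusted p of the 40 genes (-1.57 ± 0.18, adjusted p = 0.00189). OIP5, which encodes Mis18-beta, stood at 2.40, 2.80 and 2.34, against 3.75, 3.84 and 3.84 (-1.29 ± 0.18, adjusted p = 0.00378), and MIS18A at 4.51, 4.73 and 4.30, against 5.24, 5.26 and 5.37 (-0.78 ± 0.16, adjusted p = 0.0259). The controls of these genes lay close together, control 3 included, and the median change was -1.28 without that array, against -1.29 with it.

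Of 5 spindle checkpoint genes 3 fell, against 1.81% of all genes. BUB1, the kinase that marks the inner centromere and recruits BUBR1, stood at 5.86, 5.85 and 5.49 in the low arrays, against 7.22, 7.07 and 7.73 in the controls (-1.61 ± 0.22, adjusted p = 0.00355). MAD2L1, which encodes the checkpoint effector MAD2, stood at 4.67, 4.54 and 3.90, against 5.55, 5.85 and 6.70 (-1.66 ± 0.29, adjusted p = 0.0103). TTK, which encodes MPS1, changed by -1.39 ± 0.30 (adjusted p = 0.0313; -1.01 without control 3), and its call ended under 7 of 18 alternative settings. BUB3, which carries BUB1 and BUBR1 to the kinetochore, changed by -0.38 ± 0.17 and did not pass (adjusted p = 0.328). MAD1L1, which encodes the MAD1 platform for MAD2, stood at 4.53, 4.21 and 4.01, against 4.37, 4.29 and 3.76. Its groups overlapped (0.11 ± 0.23, 95% interval -0.39 to 0.61, adjusted p = 0.901), and the sign turned without control 3 or without low 1.

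**Figure D3:**
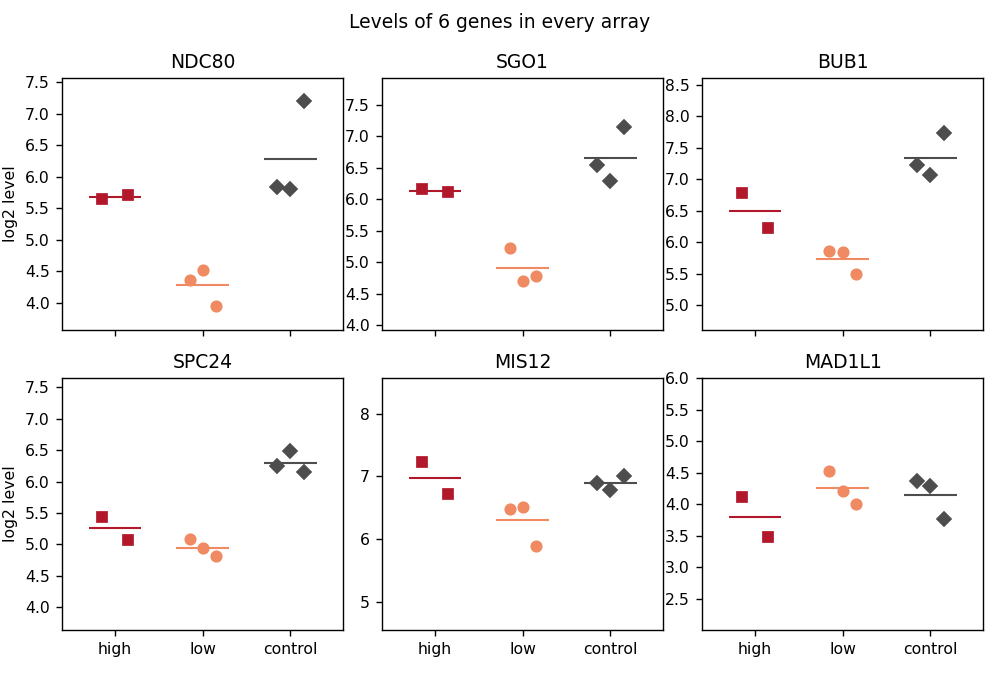
Log2 level of NDC80, SGO1, BUB1, SPC24, MIS12 and MAD1L1 in every array (points) with the group mean (line), each panel spanning 4 log2 units; levels of different genes are not comparable. In every gene but MAD1L1 the low arrays lie below every control array, although MIS12 was not called, and in MAD1L1 the groups overlap.

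The fibrous corona and the RZZ complex are outer layers that capture microtubules and hold the checkpoint proteins. Of their genes 3 of 4 fell, against 1.81% of all genes. The kinesin gene CENPE stood at 5.46, 5.21 and 4.71 in the low arrays, against 6.40, 6.14 and 7.14 in the controls (-1.43 ± 0.27, adjusted p = 0.0167). CENPF stood at 6.15, 6.04 and 5.67, against 6.99, 6.88 and 7.61 (-1.21 ± 0.23, adjusted p = 0.0174). Both were highest in control 3 and lowest in low 3. KNTC1, which encodes the RZZ subunit ROD, changed by -1.19 ± 0.20 (adjusted p = 0.00897). ZW10 stood at 5.39, 5.38 and 4.86, against 5.91, 5.79 and 6.04, and did not pass (-0.70 ± 0.18, adjusted p = 0.0684). Of the shugoshins, guardians of centromeric cohesion, SGO1 stood at 5.23, 4.71 and 4.78, against 6.54, 6.29 and 7.15 (-1.76 ± 0.23, adjusted p = 0.00292). SGO2 stood at 3.54, 3.21 and 3.22, against 4.21, 3.72 and 5.09, and did not pass (-1.02 ± 0.29, adjusted p = 0.0967).

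Of the 29 calls, 12 held under all 18 alternative settings, those of HJURP, OIP5, CENPK, CENPU, ZWINT, NDC80, SPC24, SPC25, SKA3, KNTC1, BUB1 and SGO1. Calls ended under 12 settings for CENPH and NSL1, 10 for CENPP, 7 for CENPW and TTK, and 1 to 5 for the other 12 genes. With the replicate block over all 8 arrays every call of the 29 held, and CENPO (adjusted p = 0.0367) and SGO2 (0.0434) were called besides. With the block fitted to the low and control arrays alone, CENPO was called (0.0394) and 14 calls ended, at adjusted p-values of 0.0519 to 0.0946. These were the calls of CENPH, CENPI, CENPN, CENPP and CENPW in the constitutive network, of DSN1, NSL1 and KNL1, of SKA1 and MIS18A, of CENPE and CENPF, and of the checkpoint genes MAD2L1 and TTK. The role medians lay between -0.95 in the constitutive network and -1.57 in the Ndc80 complex, and between -0.83 and -1.33 in the same groups without control 3. The differences between role groups were not tested.

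**Figure D4:**
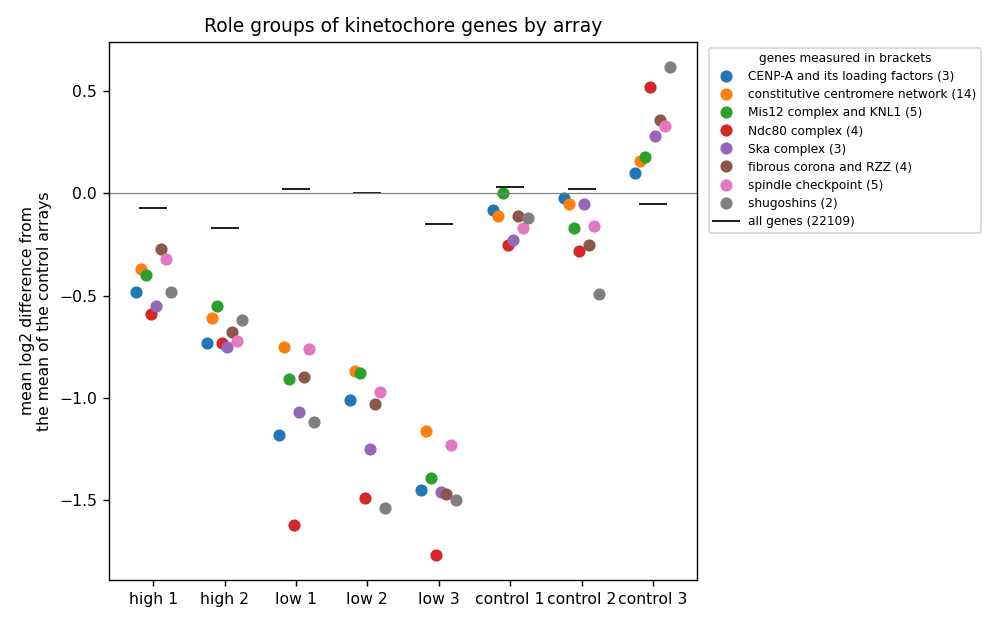
Mean log2 difference from the mean of the control arrays over the genes of each role group, by array; the bar is the mean over all 22109 genes. The Ndc80 genes lie between -1.77 and -1.49 in the low arrays and at -0.59 and -0.73 in the high arrays, while the bar stays between -0.17 and 0.03.

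At the high dose 1 of the 40 genes was called lower, SPC24, and none higher, against 0.389% of all genes lower and 0.425% higher. SPC24 stood at 5.44 and 5.07 in the high arrays, against 6.24, 6.48 and 6.15 in the controls. Its change was -1.04 ± 0.19 (adjusted p = 0.0337) and the call ended under 7 of 17 alternative settings, among them the removal of either high array (adjusted p = 0.0915 without high 1 and 0.278 without high 2), of control 1 (0.113), of control 2 (0.126), of low 1 (0.0631) or of low 2 (0.0713), and a fit of these 2 groups alone (0.104). The median change of the 40 genes was -0.55, against -0.12 over all genes, or -0.39 without control 3, -0.33 after quantile normalization, which moved the median of all genes to -0.02, and -0.30 without control 3, low 3 and high 2. Quantile normalization also moved the calls over all genes to 135 lower and 327 higher, against 86 and 94 without it. Without control 3 the lower calls over all genes numbered 740, and 2 of the 40 genes were called, SPC24 and ZWINT. At an unadjusted p under 0.05, 23 of the 40 genes were lower and 0 higher, against 11.4% of all genes lower. Both high arrays lay below every control array in 26 of the 40 genes, against 22.9% of all genes.

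Next to SPC24 came DSN1, with 5.43 and 5.30 in the high arrays against 6.47, 6.18 and 6.51 in the controls (-1.02 ± 0.26, adjusted p = 0.108), and ZWINT (-0.76 ± 0.18, adjusted p = 0.0895). MAD2L1 (-0.91 ± 0.32), BUB1 (-0.84 ± 0.24) and CENPP (-0.82 ± 0.23) had changes of similar size, with adjusted p-values of 0.225, 0.157 and 0.145. Other genes lay close to the controls. MIS12 stood at 7.23 and 6.72 in the high arrays, against 6.90, 6.79 and 7.01 (0.07 ± 0.23, 95% interval -0.44 to 0.58). CENPF stood at 7.27 and 6.71, against 6.99, 6.88 and 7.61 (-0.17 ± 0.26, 95% interval -0.74 to 0.40), and CENPW at 3.64 and 3.46, against 3.37, 3.47 and 4.18 (-0.12 ± 0.25). NDC80 and NUF2, with large falls in the low arrays, stood at 5.65 and 5.71 and at 5.59 and 5.50 in the high arrays, near control 1 and control 2 and below control 3. Their changes were -0.60 ± 0.36 and -0.45 ± 0.38, or -0.14 and 0.07 without control 3. The signs of CENPF, CENPW, TTK and CENPT also turned without control 3.

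**Figure D5:**
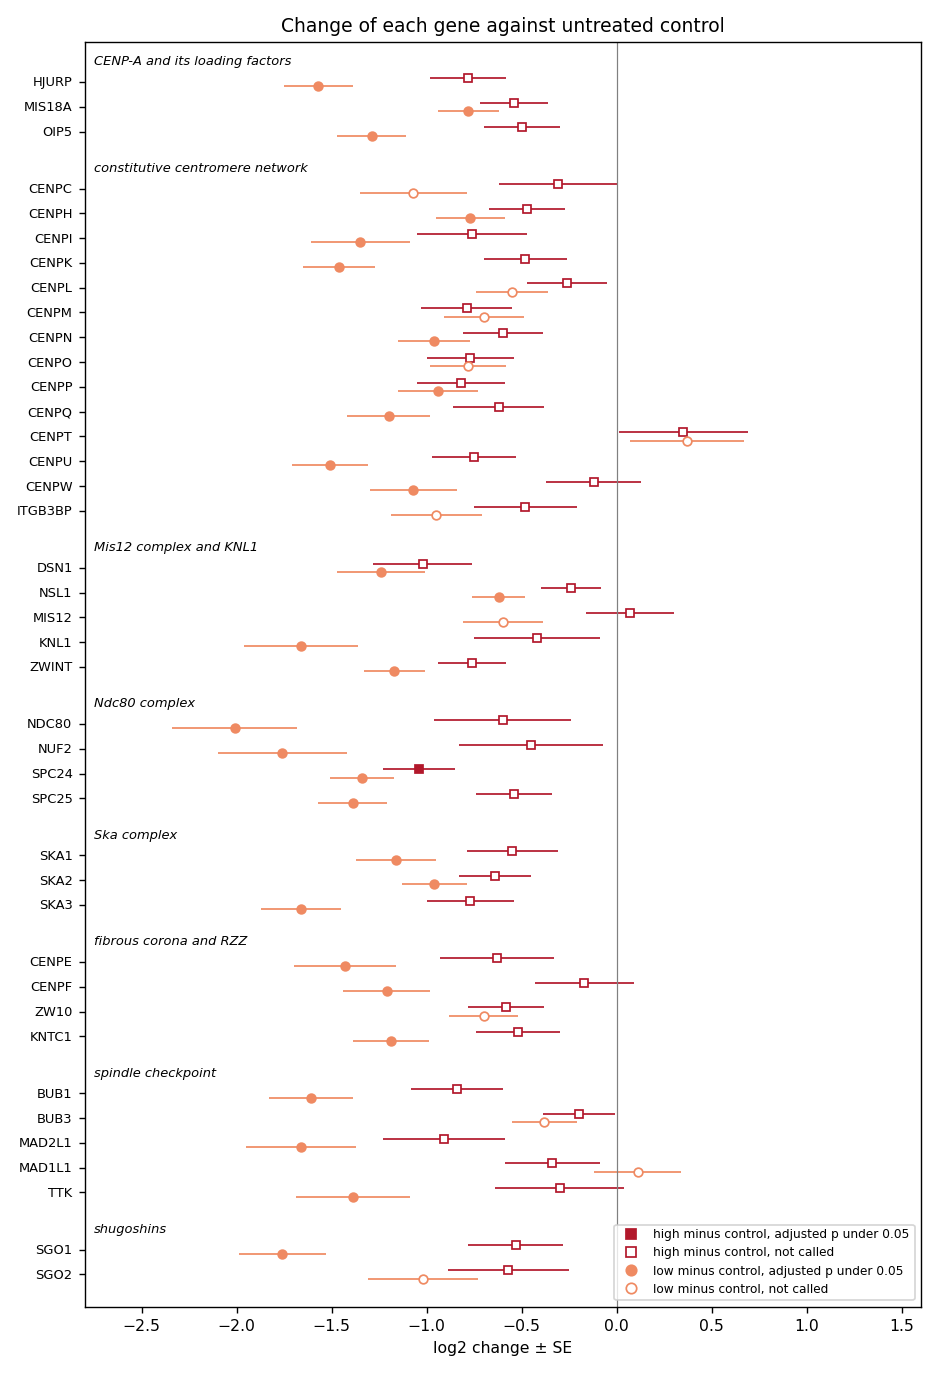
Log2 change ± SE of each gene against the 3 controls, in the high arrays (squares, n = 2) and the low arrays (circles, n = 3); filled symbols have an adjusted p under 0.05. The low changes reach -2.01 and 29 are filled; of the high changes, SPC24 is filled; both comparisons use the same controls.

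The high and low arrays were compared directly, which does not use the controls except through the shared spread. The high arrays were higher in 37 of 40 genes, where 38.4% of all genes were higher, with a median difference of 0.60 against -0.07 over all genes. No gene was called, against 0.00452% of all genes called higher. At an unadjusted p under 0.05, 23 of the 40 were higher and 0 lower, against 2.56% of all genes higher. In 27 of the 40 genes both high arrays lay above every low array, against 8.77% of all genes. SGO1 stood at 6.17 and 6.11 in the high arrays, against 5.23, 4.71 and 4.78 in the low arrays (1.23 ± 0.25, 95% interval 0.67 to 1.79, adjusted p = 0.3). NDC80 stood at 5.65 and 5.71, against 4.36, 4.52 and 3.94 (1.41 ± 0.36, interval 0.61 to 2.21, adjusted p = 0.353), and CENPK at 5.70 and 5.21, against 4.77, 4.36 and 4.31 (0.98 ± 0.22, adjusted p = 0.3). With CENPF (1.04), SKA3 (0.89), SPC25 (0.84), HJURP (0.80) and OIP5 (0.79), at adjusted p-values of 0.305 to 0.354, these were the 8 genes with the smallest p. NUF2 (1.31), KNL1 (1.24) and TTK (1.10) had differences of similar size with larger p-values (adjusted p = 0.393, 0.363 and 0.409). SPC24, the gene called lower at the high dose, differed by 0.31 ± 0.19 between the high and low arrays, and DSN1 by 0.22 ± 0.26. Without control 3, 7 genes were called higher in the high arrays, where 74 of all 22109 genes were: CENPF, CENPW, KNL1, NDC80, NUF2, SGO1 and TTK.

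Other genes of the pathway were taken from lists by role. Over all genes 1.81% were called lower in the low arrays, and the median change was -0.04. Of the chromosomal passenger complex, which corrects wrong attachments, with its partner HASPIN, all 5 genes fell in the low arrays (median -1.25), among them the borealin gene CDCA8 (-1.73 ± 0.18, adjusted p = 0.00125), BIRC5, which encodes survivin (-1.40 ± 0.22, 0.0073), HASPIN (-1.25 ± 0.21, 0.00962) and INCENP (-0.94 ± 0.18, 0.0174). Of 17 measured centromere and kinetochore partners 7 fell (median -0.63). They included the kinesin genes KIF2C (-1.67 ± 0.21) and KIF18A (-1.68 ± 0.27), the kinase gene PLK1 (-1.24 ± 0.19) and TRIP13, which recycles MAD2 (-1.07 ± 0.19), with adjusted p-values of 0.0027 to 0.0106.

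Against 1.81% of all genes, 5 of 21 genes of the anaphase-promoting complex and its regulators, the target of the checkpoint, fell (median -0.59). These were the separase gene ESPL1 (-1.18 ± 0.18), UBE2C, its ubiquitin-conjugating enzyme (-1.17 ± 0.20), the inhibitor gene FBXO5 (-1.45 ± 0.26), the core subunit ANAPC5 (-0.67 ± 0.16) and the coactivator CDC20 (-1.05 ± 0.25). Their adjusted p-values were 0.00654 to 0.0471, and the calls of ANAPC5 and CDC20 ended under 11 and 8 of 18 alternative settings. Of 10 measured genes that encode the FOXM1, B-MYB and DREAM regulators, 3 fell (median -0.41): FOXM1 (-1.25 ± 0.20), LIN9 of the MuvB core (-1.16 ± 0.19) and RBL1, which encodes p107 (-1.07 ± 0.19), at adjusted p-values of 0.00796 to 0.0114. No gene of these 4 lists was called higher at the low dose, and none was called at the high dose or between the high and low arrays. The largest rises at the low dose were in NDEL1 (0.56 ± 0.17, adjusted p = 0.139) and LIN37 (0.55 ± 0.22, adjusted p = 0.269). Both were called higher under some alternative settings. At the high dose RBL1 (-1.01 ± 0.21, adjusted p = 0.0574) and CDCA8 (-0.93 ± 0.20, adjusted p = 0.0667) came closest to a call, and some alternative settings called them lower. The medians at the high dose were -0.69 for the passenger complex, -0.46 for the partners, -0.47 for the anaphase-promoting complex and -0.49 for the regulators. Over all genes the median was -0.12, and 0.389% were called lower.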

How the data were processed

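The authors deposited log2 levels in 1 table of 53617 probe sets by 8 arrays, made with the Transcriptome Analysis Console per the submitters' processing notes. How probe sets were summarized and normalized is not given in the sources used here. That the scale is log2 was read from its range (highest 12.1, above 11.09, the natural log of a 16-bit ceiling). Rows were named through the platform annotation (23558 with 1 symbol, 2155 with several, 27904 unnamed). The row with the highest mean was kept for the 618 genes with several, leaving 22109 genes. Group means were fitted to all 8 arrays together (limma 3.58.1, R 4.3.3; 5 residual and 6 prior degrees of freedom). P-values were adjusted over all genes by Benjamini-Hochberg, and a gene was called under 0.05. The fit was tested on simulated data with independent noise and no shifts between arrays. The simulation therefore does not cover the effect of the arrays that stood apart. The number of arrays limits the precision. The genes, roles, lists and alternative settings were chosen with earlier results of these data known. All 40 measured genes are named; values in every array are given for the 2 largest and the smallest absolute changes at the low dose in roles of 4 or more genes, for every gene of smaller roles, and for genes called at the high dose, with a few more chosen after their values were seen. Related lists name up to 4 called genes by smallest p. The fifth called gene of the anaphase-promoting list was named after its value was seen. Deviations from the group means correlated at 0.103, 0.153 and 0.203 between low and control arrays of the same replicate number. Each was above 0.1, which was taken as a sign of pairing. However, control 1 correlated more with low 2 (0.122) than with low 1. The highest value, 0.203, joined the low array and the control array that stood apart from their groups. These small correlations do not settle whether the arrays were paired. The count of 29 comes from the fit without pairing. The replicate block gave 31 over all 8 arrays and 16 over the low and control arrays alone. Between high and control arrays the deviations correlated at 0.094 and -0.049.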

Additional observations from a re-analysis of the deposited data

How the results depend on the processing

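The count of kinetochore genes called lower at the low dose was 29, with 400 of all genes lower. With 1 array left out it lay between 16 (without low 3) and 26 (without control 3), with 188 and 408 of all genes lower. Under the other settings it lay between 25 (the 2 groups alone) and 35 (array weights), with 317 and 1094 of all genes lower. The exception was the replicate block fitted to the low and control arrays alone, a setting chosen after seeing the data. It gave 16, with 310 of all genes lower. The block over all 8 arrays gave 31, with 576 of all genes lower. The count of higher genes was 0 under every setting. At the high dose the count of lower genes, 1, was 5 with array weights, 4 with the replicate block, 0 with the 2 groups alone, 4 without control 3, low 3 and high 2, and 0 to 2 when 1 array was left out; lower calls over all genes moved likewise, 86 as reported and 769, 1031, 9, 1001 and 1 to 740 under these settings. Between the high and low arrays the count of higher genes, 0, was 1 with the replicate block, 3 with the 2 groups alone, 4 without control 3, low 3 and high 2, and 0 to 7 when 1 array was left out, with 21, 29, 93 and 0 to 74 of all genes higher. The causes were not tested. Of 720 gene values at the low dose 612 kept direction and side of the threshold, 82 lost the call, 23 gained it and 3 changed sign. Sign changes at the low dose came with 1 array left out, for CENPT (-0.02 to 0.67) and MAD1L1 (-0.08 to 0.23). At the high dose 19 of 680 values changed sign. With quantile normalization they were CENPW (0.04) and CENPF (0.03), with array weights CENPW (0.08), and with the replicate block MIS12 (-0.00). Without control 3, low 3 and high 2 they were CENPC (0.11), CENPL (0.01), CENPW (0.23), KNL1 (0.09), NUF2 (0.11), CENPF (0.33), BUB3 (0.07) and TTK (0.32). With 1 array left out the ranges were -0.04 to 0.65 for CENPT, -0.27 to 0.14 for CENPW, -0.18 to 0.32 for MIS12, -0.77 to 0.07 for NUF2, -0.45 to 0.11 for CENPF and -0.53 to 0.09 for TTK. The settings that leave out arrays leave 1 or 2 in the group concerned. Where a high array is left out, the lone high array is assumed to vary like the others.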
